A study of Mus musculus with 11 samples.

Results

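The circadian clock genes described here are the 10 genes Arntl, Clock, Npas2, Per1, Per2, Per3, Cry1, Cry2, Dbp and Nfil3, taken by their symbols from an expression table of mouse mammary gland. All 10 were found, on 14 of the table's 30305 loci, among 14847 genes with a symbol of their own. The RNA came from whole mammary tissue of wild-type mice of the mixed background 129SV::FVB/N::C57BL/6, collected at parturition (L1) after removal of the lymph nodes. The series examines STAT5A binding, the promoter mark H3K4me3 and the transcriptome, and its labels describe ChIP-seq and input samples at day 6 and day 13 of pregnancy and at parturition besides this RNA library. Expression at day 6 and day 13 was not analysed here, and neither was binding or the mark at the promoters of the clock genes. The L1 group held 1 RNA-seq library, so every value below is a single measurement with no error, and no difference between genes has been set against variation between mice. The sources used here give neither the hour at which the tissue was taken nor whether the library came from 1 mouse or from pooled mice.

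The circadian clock is a feedback loop of transcription that runs in nearly every cell type. BMAL1, the product of Arntl, pairs with CLOCK or with NPAS2 and activates genes through E-boxes, and among those genes are the Period and Cryptochrome genes, whose proteins return to the nucleus and inhibit the activators. A further loop through the nuclear receptors REV-ERB and ROR sets the level of Arntl, and the factors DBP and NFIL3 compete for D-boxes with opposite effects. In rhythmic tissues Arntl and Npas2 peak at a phase opposite to that of Dbp and Nr1d1, so the level of each gene depends on the hour of sampling. In whole tissue, fewer cells of a type and less RNA per cell cannot be told apart.

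All 10 clock genes were detected, with between 38.4% (Dbp) and 79.7% (Cry1) of named genes below them in level. Levels are in FPKM (fragment counts scaled for transcript length and library size), so they are compared per length, and a gene with several loci is given by its highest locus unless a sum is named. The 10 levels ran from 2.17 FPKM for Dbp to 14.5 FPKM for Cry1, a 6.67-fold range, with a median of 5.11 FPKM against 3.90 FPKM over all named genes. Over named genes of at least 1 FPKM the median was 6.76 FPKM, above that of the 10 clock genes. All 10 reached 1 FPKM, as did 73.6% of named genes, and 6 of the 10 reached 5 FPKM, as did 44.3% of named genes. Above the median of all named genes lay 6 of the 10, where by definition 50.0% of named genes lie. The members' quartiles were 3.46 and 9.20 FPKM, a 2.66-fold span, against 0.909 and 11.4 FPKM over all named genes, a 12.5-fold span. The interval between Dbp and Cry1 also held 41.3% of all named genes, so it is a common range of expression in this library. None of the 10 was listed at 0, as 599 of the 14847 named genes were, and none reached 100 FPKM. Among named genes 96.4% lay below 77.9 FPKM, so most named genes share both of these traits.

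**Figure D1:**
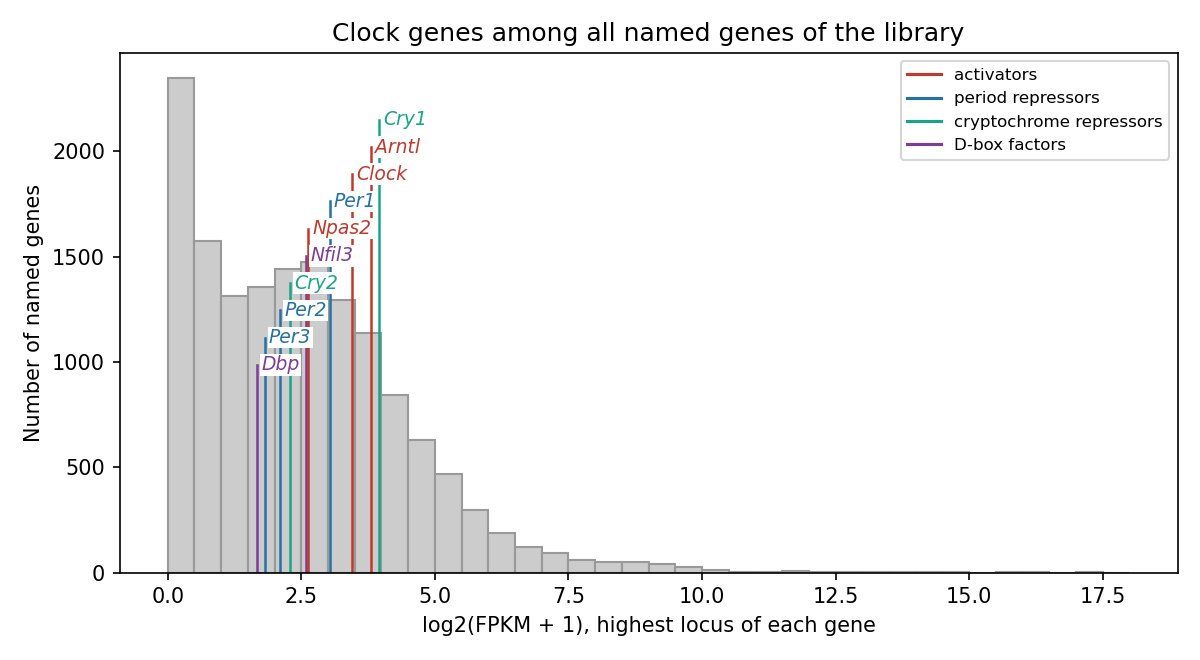
Histogram of log2(FPKM + 1) over the 14847 named genes of the library (grey bars, number of genes on the vertical axis), with the level of each clock gene as a coloured line whose height has no meaning. The clock genes lie between 1.67 (Dbp) and 3.95 (Cry1) on this log2 scale, with named genes on both sides of that range.

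In order of their highest locus, Cry1 stood first, followed by Arntl, Clock, Per1, Npas2, Nfil3, Cry2, Per2, Per3 and Dbp. With 1 library, which neighbours in this order differ beyond the spread between samples could not be determined. The order also depended on how loci were combined: 3 of the 10 genes (Arntl, Per2 and Dbp) had several loci, as did 25.8% of named genes, and with the loci of each gene summed Arntl stood above Cry1 and Per2 above Cry2, Nfil3 and Npas2. The table gives no position, strand or length of a locus, so which part of the gene each locus covers was not determined.

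**Figure D2:**
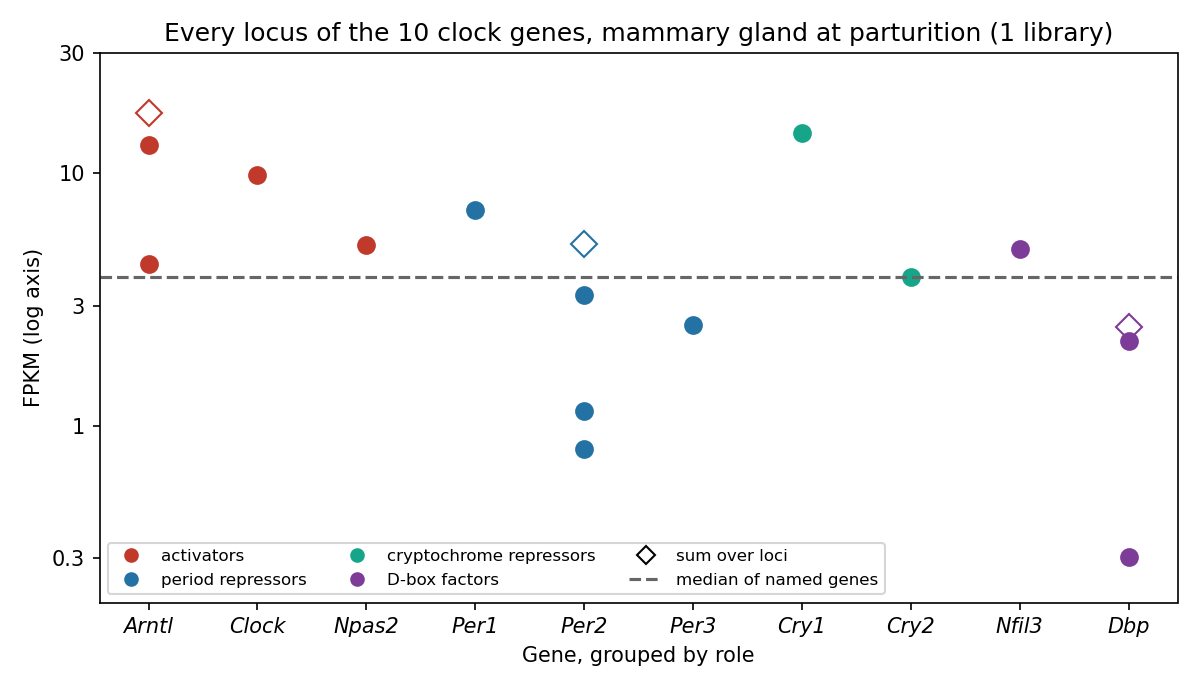
FPKM of every locus of the 10 clock genes (filled circles, log axis, 1 library), grouped by role, with the sum over loci as an open diamond where a gene has several and the median of all named genes (3.90 FPKM) as a dashed line. Arntl, Clock and Cry1 stand highest, and the lower loci of Per2 and Dbp fall to 0.813 and 0.304 FPKM.

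The activators formed the highest of the 4 role groups by sum, at 28.0 FPKM over 3 genes. The groups differ in size, so these sums partly follow the number of genes. By median the activators stood at 9.89 FPKM, close to the 9.19 FPKM of the 2 cryptochrome genes. Arntl, the common partner of both dimers, had 12.9 FPKM at 1 locus and 4.37 FPKM at another, together 17.3 FPKM, and 77.6% of named genes lay below its highest locus. That locus carried 74.8% of the gene's summed FPKM. Clock, which encodes a partner of BMAL1 with histone acetyltransferase activity, had 9.89 FPKM at its only locus, above 71.9% of named genes. Npas2, a paralog of Clock that can take its place in the dimer, had 5.20 FPKM at its only locus, above 56.7% of named genes. The level of Clock was 1.90 times that of Npas2, and both lay below that of Arntl.

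The promoter of Arntl stood out in sequence. RefSeq promoters in the assembly GRCm38.p6, from 250 bases before to 50 bases after an annotated start, were at hand for 9 of the 10 genes, all but Per2, with 13 starts in all. The search for the CCAAT box (CCAAT, or ATTGG on the other strand), a common promoter element bound by the factor NF-Y, was added after the sequences had been seen. The window at the first of the annotated Arntl starts held 8 matches, all reading ATTGG on the strand of the gene and 31 to 46 bases apart, and of 32851 promoters in the table it was the only 1 with as many. The window at the other Arntl start, which lies 46 bases on and shares 254 bases with it, held 7, a count reached by 4 promoters of which those of Arntl were 2. Of all promoters 37.4% held at least 1 match. The window at the later start is shown because it also holds AGGTCA, the core of the element bound by ROR and REV-ERB, whose first base lies at 32 downstream of the start. It covers chr7:113207261-113207560 on the + strand, with each ATTGG and the AGGTCA in capitals.
Arntl promoter: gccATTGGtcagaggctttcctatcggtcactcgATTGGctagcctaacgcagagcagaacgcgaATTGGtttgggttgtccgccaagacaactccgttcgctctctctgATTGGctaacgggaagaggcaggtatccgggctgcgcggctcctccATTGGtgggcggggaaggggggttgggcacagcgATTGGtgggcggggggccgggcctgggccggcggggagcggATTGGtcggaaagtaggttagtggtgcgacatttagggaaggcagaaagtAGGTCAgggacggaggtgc

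The Period genes, whose products PER1, PER2 and PER3 carry the cryptochromes into the nucleus and inhibit the BMAL1 dimers, summed to 13.0 FPKM by their highest loci. Per1 led them with 7.15 FPKM at its only locus, above 64.6% of named genes. Per2 had 3.32, 1.15 and 0.813 FPKM at its 3 loci, and its highest locus lay above 46.4% of named genes. Per3, which is dispensable for the core loop, had 2.51 FPKM at its only locus, above 40.9% of named genes. Per1 was above the median of named genes, and the highest loci of Per2 and Per3 were below it. No Period gene had a locus as high as the highest of Arntl or as that of Clock.

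The ratios within the Period family turned on the loci of Per2. By the highest locus Per1 stood at 2.16 times Per2, and Per2 at 1.32 times Per3. The highest locus of Per2 carried 62.8% of its summed FPKM, which came to 5.28. With that sum, Per1 stood at 1.36 times Per2 and Per2 at 2.10 times Per3. Per2 was then above 54.6% of named genes, the named genes being summed in the same way. The ratio of Per1 to Per2 was chosen after the data had been seen. The order Per1, Per2, Per3 held in both ways of combining loci.

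The promoters of Per1 and Per3 held the elements in different combinations, and they are shown for that contrast. The first of the annotated Per1 starts had 1 E-box (CACGTG, the palindrome bound by BMAL1 dimers), with its first base at -166 from the start, and 1 match of the relaxed D-box (TTATGNAA, which includes the full D-box TTATGTAA) at -24. Per3 had no E-box in this window but the full D-box at -205 and again at -158. Both strands were searched. Of all 32851 promoters, 7.15% held CACGTG, 3.38% held TTATGNAA and 0.938% held TTATGTAA. The Per1 window covers chr11:69098699-69098998 on the + strand and the Per3 window chr4:151044616-151044915 on the - strand, with the E-box and the D-boxes in capitals.
Per1 promoter: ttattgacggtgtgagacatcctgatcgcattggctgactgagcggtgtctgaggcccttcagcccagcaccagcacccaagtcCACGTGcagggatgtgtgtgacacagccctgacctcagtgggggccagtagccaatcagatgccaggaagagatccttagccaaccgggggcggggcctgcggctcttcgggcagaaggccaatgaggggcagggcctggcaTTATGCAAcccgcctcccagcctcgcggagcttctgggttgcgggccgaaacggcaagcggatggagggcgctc
Per3 promoter: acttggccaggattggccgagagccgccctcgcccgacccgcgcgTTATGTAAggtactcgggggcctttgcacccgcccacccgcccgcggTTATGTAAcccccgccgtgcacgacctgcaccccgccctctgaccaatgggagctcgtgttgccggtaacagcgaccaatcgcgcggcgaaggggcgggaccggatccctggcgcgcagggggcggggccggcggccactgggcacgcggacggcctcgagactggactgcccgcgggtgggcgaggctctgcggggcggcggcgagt

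The cryptochrome genes, which encode the strongest repressors of the BMAL1 dimers, differed in level within this library. Cry1 had 14.5 FPKM at its only locus, above 79.7% of named genes and the highest locus of any clock gene here. Cry2 had 3.88 FPKM at its only locus, just below the median of named genes, with 49.9% of them lower. Cry1 was at 3.74 times the level of Cry2. As both genes had 1 locus, this ratio did not depend on how loci were combined. Cry1 and Arntl, 2 of the 10 genes, lay above the upper quartile of named genes (11.4 FPKM), close to the share of named genes that defines this quartile. These genes, a repressor and an activator, had the highest loci of the 10.

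Cry1 was the other clock gene with an E-box in the window, and its promoter is shown beside that of Per1 for this reason. The window covers chr10:85185005-85185304 on the - strand, and the CACGTG in capitals has its first base at -60. The Cry2 window held neither an E-box nor a D-box of the letters searched, which says only that these letters are not in that window.
Cry1 promoter: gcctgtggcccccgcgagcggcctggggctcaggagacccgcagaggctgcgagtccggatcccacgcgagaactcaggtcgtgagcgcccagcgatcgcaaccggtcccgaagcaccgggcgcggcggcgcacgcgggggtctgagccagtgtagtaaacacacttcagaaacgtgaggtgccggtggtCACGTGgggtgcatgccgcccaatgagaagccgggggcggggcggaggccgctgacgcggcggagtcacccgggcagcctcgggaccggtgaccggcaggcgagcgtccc

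Dbp and Nfil3 had the lowest sum of the 4 role groups, at 7.20 FPKM over 2 genes. Their median of 3.60 FPKM lay above the 3.32 FPKM of the 3 Period genes. With loci summed the order turned, at 3.75 against 5.28 FPKM. Dbp, a PAR bZIP activator whose transcript is among the most strongly rhythmic in many tissues, was the lowest clock gene, with 2.17 FPKM at 1 locus and 0.304 FPKM at another, and 38.4% of named genes lay below its highest locus. Nfil3, which encodes the repressor E4BP4 of the same D-boxes, had 5.03 FPKM at its only locus, above 55.8% of named genes. Nfil3 stood at 2.31 times Dbp by the highest locus and at 2.03 times by the sum over loci, a ratio chosen after the data had been seen. Arntl stood at 5.95 times Dbp, and at 6.99 times with loci summed, the widest ratio between clock genes in that setting. In the assembly GRCm38.p6 the span of Dbp overlaps that of the sphingosine kinase gene Sphk2, which had 6.87 FPKM. The span of Per3 overlaps that of Uts2, which is not among the named genes. Of the 10 clock genes, 7 overlap another annotated gene, and these 2 overlap a protein-coding one. The same share over all genes was not counted, so these counts are not read as a trait of the clock genes. The sources used here do not say whether the assembly of loci used strand. Whether reads of Dbp and Sphk2, or of Per3 and Uts2, were told apart where the spans overlap was therefore not determined.

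The GC content of the 13 promoter windows, of which those of 1 gene can overlap, ran from 47.0% to 81.7% with a median of 70.3%, against a median of 52.7% over all promoters, and 12 of the 13 lay above that median. The highest belonged to Nfil3 and the lowest to the last of 3 Clock starts. AGGTCA was found in 4 windows, of Arntl, Clock, Per1 and Nfil3, and in 16.3% of all promoters. CCAAT, searched for after the sequences had been seen, was found in 10 of the 13 windows, against 37.4% of all promoters, and in 8 of the 9 genes, with Npas2 the exception, against 41.1% of all genes in the promoter table. The spaced palindrome TTCNNNGAA, which STAT5 can bind, was found in the windows of Dbp, at -99, and of the second Per1 start, at -210, and in 8.30% of all promoters. A match is a description of sequence and does not show that a factor binds there in the gland.

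**Figure D3:**
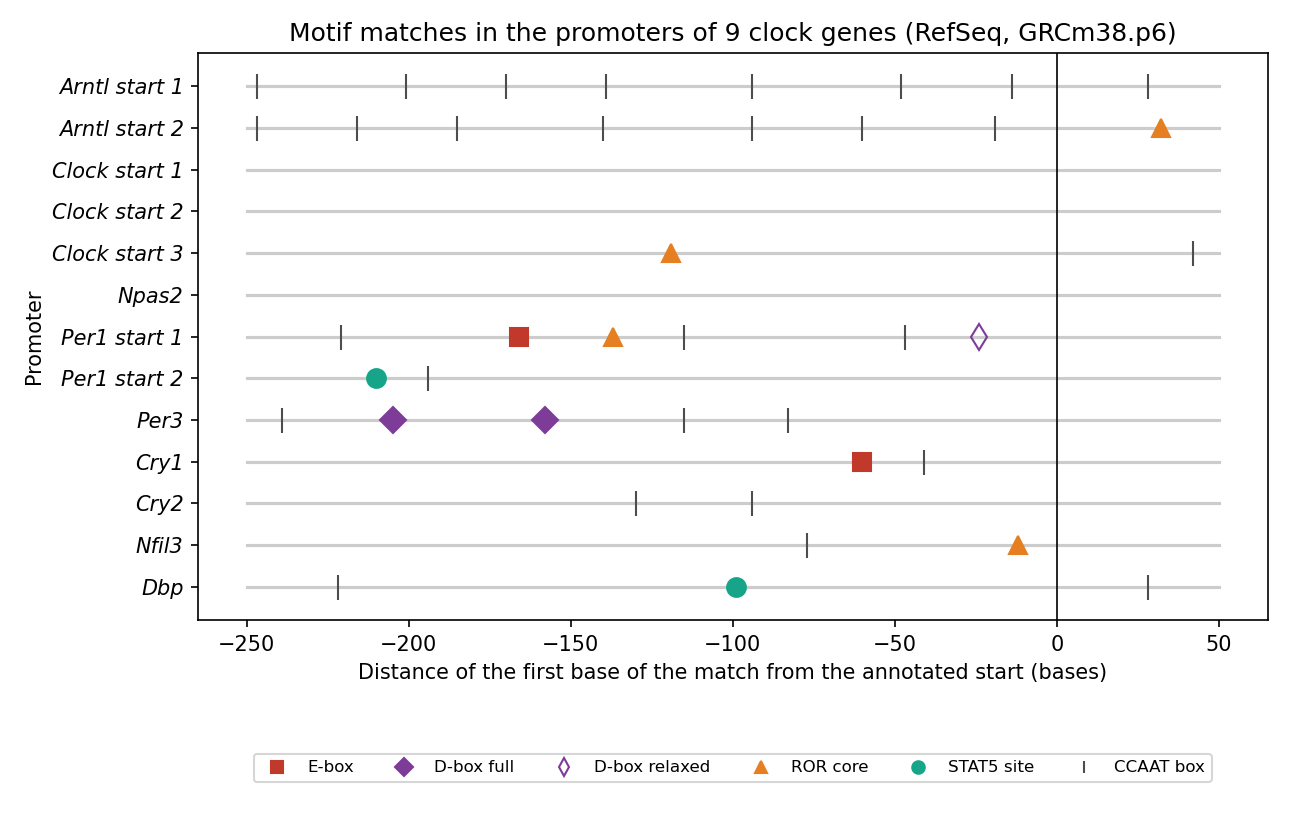
Motif matches in the 13 promoter windows of 9 clock genes (RefSeq, GRCm38.p6), by distance of the first base of the match from the annotated start in bases. The E-boxes lie in Per1 and Cry1, the full D-boxes in Per3, and CCAAT boxes run through both Arntl windows, 8 in the first and 7 in the second.

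The wider clock pathway was described with a list of 36 other genes, of which 34 had a value; Rorb and Avp had none. The median of the 34 was 9.25 FPKM, above the 5.11 FPKM of the 10 clock genes and the 3.90 FPKM of all named genes. Of the 34, 30 (88.2%) reached 1 FPKM, as did 73.6% of named genes. Of these genes, 18 lay within the range set by the 10 clock genes, 10 above Cry1 and 6 below Dbp. Among all named genes, 41.3% lay within that range, 38.4% lay below Dbp and 79.7% lay below Cry1.

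Genes of the nuclear receptors that act on Arntl lay on both sides of it. Rora, an activator of Arntl, had 17.0 FPKM at the highest of 27 loci, of which 2 reached 1 FPKM and 11 were listed at 0. The REV-ERB repressor genes Nr1d1 and Nr1d2 had 3.05 and 9.10 FPKM. Arntl stood at 4.25 times Nr1d1, and at 5.68 times with loci summed. This ratio was chosen after the data had been seen.

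The relatives of Dbp and of the other repressors spread widely. The PAR bZIP genes Hlf and Tef, whose products bind the same D-boxes as DBP, had 20.8 and 7.05 FPKM, both above Dbp. With loci summed they had 22.7 FPKM (3 loci) and 16.4 FPKM (5 loci), so the gap between them was smaller. The BMAL1 repressor genes Bhlhe40 and Bhlhe41 (DEC1 and DEC2) had 11.0 and 0.997 FPKM. Arntl2, the paralog of Arntl, had 0.954 FPKM, and Ciart, a further repressor listed under its older symbol Gm129, had 0.957 FPKM. Fbxl21, a ligase for cryptochromes, was lowest of the pathway list at 0.103 FPKM. All 7 genes listed for kinases of clock proteins, subunits included, reached 5 FPKM, as did 44.3% of named genes. They ran from 7.58 FPKM for Gsk3a to 60.7 FPKM for Csnk2b, which encodes a regulatory subunit and not a kinase itself. The other high genes were Nampt, the rate-limiting enzyme of NAD salvage and a clock output, at 124 FPKM, Nono, which binds PER proteins, at 77.9 FPKM, and the corepressor enzyme Hdac3 at 41.3 FPKM. Nampt, Nono, Csnk2b and Hdac3 also act in processes outside the clock.

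**Figure D4:**
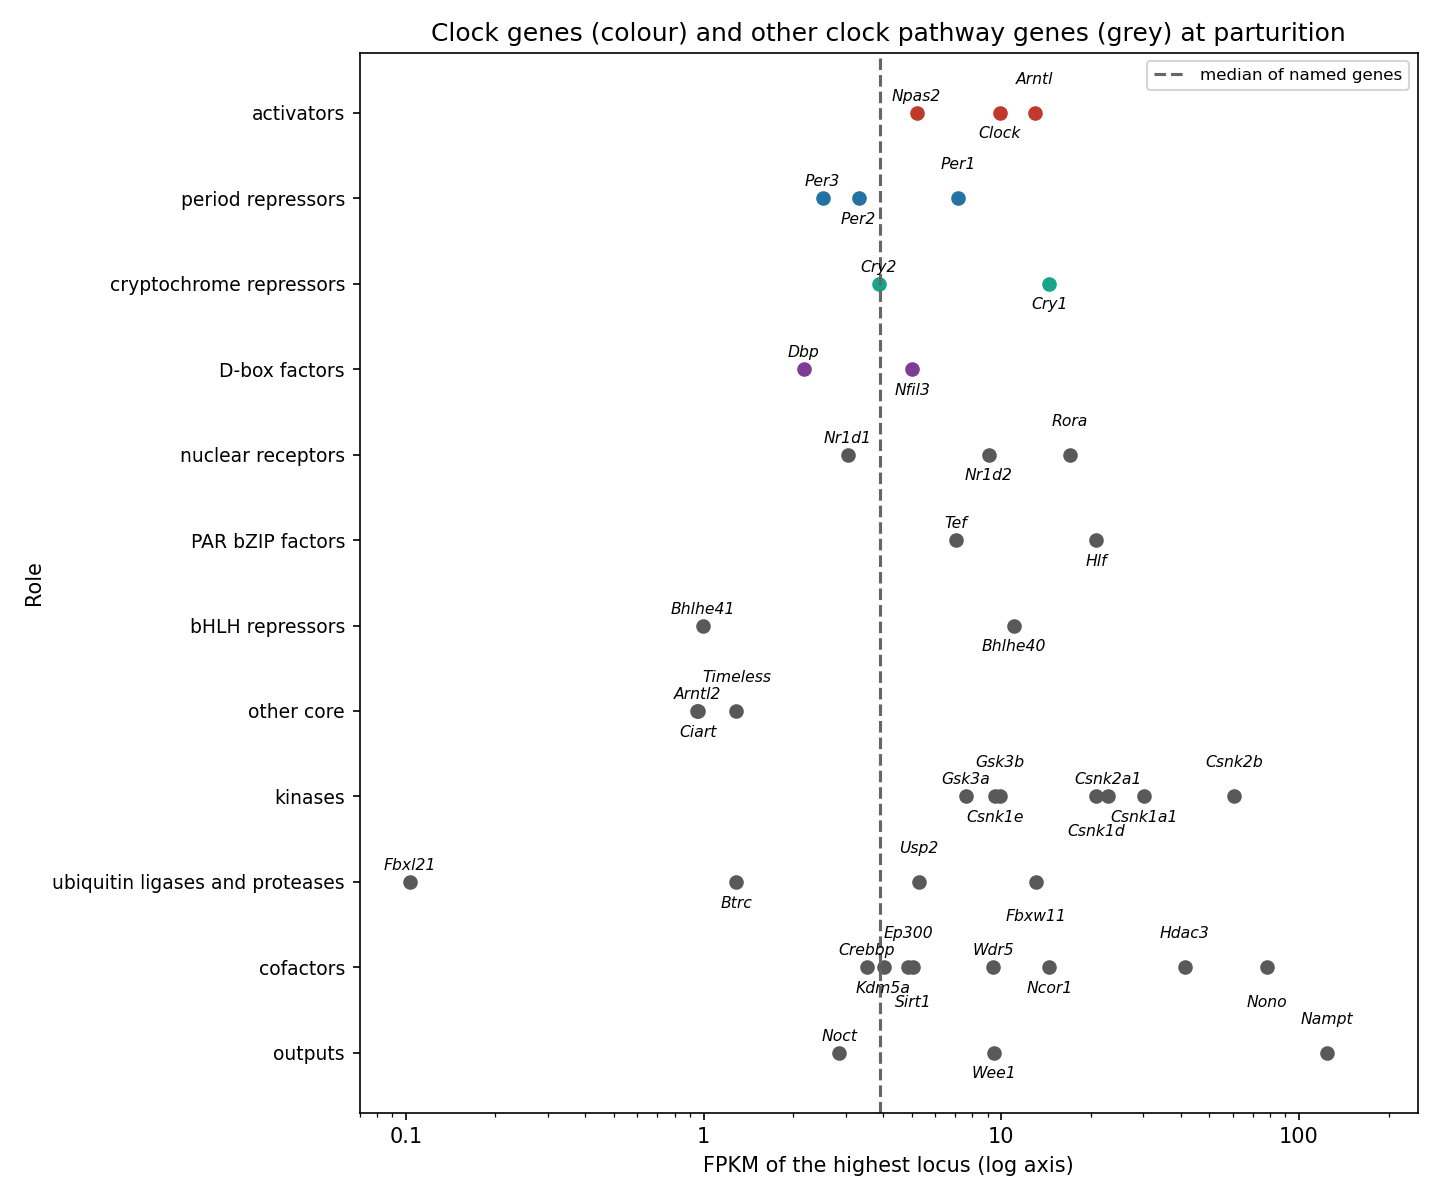
FPKM of the highest locus (log axis, 1 library) of the 10 clock genes in colour and of 32 of the 34 other clock pathway genes in grey, by role, with the median of all named genes (3.90 FPKM) as a dashed line. Arntl2, Ciart, Timeless and Bhlhe41 stand near 1 FPKM, below every one of the 10 clock genes. All genes plotted in the kinase group, which includes a regulatory subunit (Csnk2b), stand above the median.

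The tissue of this library carried markers of several cell types, and their part in the clock gene levels was not tested. All 6 luminal markers were present, from 129 FPKM for Krt8 to 170861 FPKM for the beta-casein gene Csn2. Myoepithelial markers ran from 28.8 to 54.2 FPKM over 4 genes, and Acta2, also listed for them, had no value. Adipocyte markers ran from 5.51 to 723 FPKM over 5 genes and skeletal muscle markers from 25.0 to 37.2 FPKM over 4. Fibroblast markers ran from 2.40 to 82.6 FPKM over 4 genes and endothelial markers from 7.05 to 15.1 FPKM over 3. Lymphocyte markers were lowest, from 0 to 2.47 FPKM (Ptprc) over 4 genes.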

How the data were processed

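Of 11 samples in the labels, 1 entered the results, the RNA-seq library of mammary tissue at parturition. Per the labels' protocols, poly(A) RNA was made into TruSeq libraries and read on an Illumina HiSeq. The submitters' processing notes name CASAVA, TopHat and the build mm9. The authors deposited FPKM per locus of a transcript assembly; the sources used here name neither the tool that computed it nor versions or sequencing depth, and FPKM of 1 library does not give depth. With 0 further value columns in the table, no stage could be compared and no test was run.

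The 8230 loci with no symbol and the 117 with several, none of which held a clock gene, were left out of gene counts. No minimum FPKM was applied, and a pseudocount of 1 was added before log2. Ranks are shares of named genes with a lower value. All 10 members and all loci are named; of the pathway list, the 4 highest, the 4 lowest and the nuclear receptors, PAR bZIP factors and bHLH repressors. Gsk3a, Timeless and Sphk2 were named after their values were seen, and a few list genes are not reported singly here. Noct and Ciart were matched through older symbols. The members and lists were chosen with earlier results of these data known. Motifs were searched in RefSeq promoters (GRCm38.p6), matched by symbol; no coordinate of that assembly was set against mm9. The planned protein comparison was left out. The STAT5A and H3K4me3 lists were not used, since loci have no positions. Calculations used Python 3.11.15 and pandas 2.3.3, and were tested on simulated data.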

Additional observations from a re-analysis of the deposited data

How the results depend on the processing

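Summing the loci of a gene in place of its highest locus moved 3 of the 10 clock gene levels (Arntl, Per2 and Dbp) and left 7 as they were. It reversed the order of Arntl and Cry1, with a ratio of 1.19 against 0.893, and of Per2 and Cry2, with 1.36 against 0.855; these ratios, like those of Nfil3 to Dbp, Per1 to Per2 and Arntl to Nr1d1, were added after the data had been seen. Under the sum, the median of the 10 genes was 5.24 FPKM, that of the other pathway genes 10.2 FPKM, the ratio of Arntl to Dbp 6.99 and that of Per2 to Per3 2.10. With the 7 single-locus genes only, the median was 5.20 FPKM. At a threshold of 5 FPKM, 6 of the 10 genes passed in place of 10 at 1 FPKM. With a pseudocount of 0.1 in place of 1, their median was 2.38 in place of 2.61 on the log2 scale. The ratios of Cry1 to Cry2 and of Clock to Npas2 did not move. The number of clock genes above the median of named genes was 6, 7 with sums, and 4 against named genes of at least 1 FPKM. Distances to H3K4me3 regions and STAT5A peaks were not run, since the loci have no positions. No paired analysis was possible because the L1 group holds 1 library, and no library could be left out. Depth is unknown, so no limit of detection is given for the low loci of Per2 and Dbp.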
